A study of Mus musculus with 6 samples.

Results

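The mRNA of 10 tubulin genes was followed in C2C12 cells, a mouse myoblast line that fuses into multinucleated myotubes when the serum is changed. The genes were 4 alpha-tubulins (Tuba1a, Tuba1b, Tuba1c and Tuba4a), 5 beta-tubulins (Tubb2a, Tubb2b, Tubb3, Tubb5 and Tubb6) and the epsilon-tubulin Tube1. They were taken by symbol from a count table of 43074 gene symbols, and all 10 passed the filter on low counts that left 17433 genes for testing. The 10 genes were chosen by name with their counts in these same libraries known, and Tube1 had already been seen among the larger rises with 4-PBA. Their differences between the groups are therefore a description, and whether a gene passed the threshold of the fit over all genes supports nothing by itself.

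All libraries came from wild-type C2C12 cells, and every group had 2 libraries. Day 0 cells were untreated and had been grown in medium with fetal bovine serum. The other groups were kept for 4 days in medium with horse serum, 1 with DMSO and 1 with 1 mM 4-phenylbutyric acid (4-PBA), a short fatty acid used to help proteins fold and also known to block histone deacetylases. Day 0 differs from the day 4 groups in time, serum and solvent at once, and these cannot be told apart. All samples are of a single line and carry 1 batch number.

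Alpha- and beta-tubulin form the heterodimer from which microtubules are built, and mammals make several isotypes of each from separate genes. The isotypes differ mostly in their C-terminal tails, where motors, binding proteins and modifying enzymes act. When a myoblast becomes a myotube, the microtubules change from an array centred on the centrosome to long arrays parallel to the cell axis that start at the nuclear envelope. Epsilon-tubulin is not a building block of the microtubule wall; it acts in the centriole, where it is needed for stable triplet microtubules.

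The start of the coding sequence is shown because the first codons of alpha- and beta-tubulin encode the peptide that the autoregulation factor Ttc5 reads on the ribosome to mark tubulin mRNA for decay. The first 12 coding bases, from GENCODE M21 transcripts, read as follows 5′ to 3′, with capitals where an alpha gene differs from Tuba1a or a beta gene differs from Tubb5. Tubb6 is not shown.
Tuba1a: atgcgtgagtgc
Tuba1b: atgcgtgagtgc
Tuba1c: atgcgtgagtgc
Tuba4a: atgcgCgagtgc
Tubb5: atgagggaaatc
Tubb2a: atgCgCgaGatc
Tubb2b: atgCgAgaGatc
Tubb3: atgagggaGatc
Tube1: atgacccagtcg
Tuba1a, Tuba1b and Tuba1c were the same over these 12 bases, and the start of Tube1 was set against no other gene. None of the marked bases changes the encoded amino acid. The peptide is thus the same in all alpha genes, and the same in all beta genes shown.

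The last 60 coding bases, up to and including the stop codon, encode the tail in which isotypes differ. They are shown for 4 of the 5 beta genes, without Tubb6, with capitals at bases that differ from Tubb5, compared base by base counting back from the stop codon.
Tubb5: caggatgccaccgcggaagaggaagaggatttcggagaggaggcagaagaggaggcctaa
Tubb2a: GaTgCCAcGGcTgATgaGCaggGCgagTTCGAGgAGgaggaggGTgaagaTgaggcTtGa
Tubb2b: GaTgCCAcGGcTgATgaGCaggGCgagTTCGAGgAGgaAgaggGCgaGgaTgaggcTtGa
Tubb3: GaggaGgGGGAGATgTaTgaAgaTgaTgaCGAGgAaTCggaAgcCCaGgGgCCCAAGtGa
In this comparison without gaps, Tubb2a differed from Tubb5 at 27 of these 60 bases, Tubb2b at 29 and Tubb3 at 33. The coding sequences differ in length: 1335 bases for Tubb5, 1338 for Tubb2a and Tubb2b and 1353 for Tubb3, with the stop codon. Bases that would match after a shift are therefore also marked and counted, and the counts overstate how far the tails differ.

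The likeness of the genes bears on how well their counts can be kept apart. Over the whole coding sequence, Tuba1a and Tuba1b were 98.3% identical, Tuba1b and Tuba1c 97.9%, and Tubb2a and Tubb2b 96.5%. Of the 50-base stretches in the transcript, 72.9% for Tuba1a, 73.8% for Tuba1b and 61% for Tuba1c were also found in another gene, as were 49.6% for Tubb2a and 39.3% for Tubb2b. The share was 1.11% for Tuba4a, 0.115% for Tubb5 and 0 for Tubb3, Tubb6 and Tube1. Any other gene counts here, also Gm49450, whose exons overlap those of Tuba1a and Tuba1b on the same strand. The separate values of Tuba1a, Tuba1b and Tuba1c, and those of Tubb2a and Tubb2b, are therefore uncertain, since how the authors counted reads that match several genes is not given in the sources used here.

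Total counts ranged from 47908926 to 74697397 per library, so that the spread between replicates and not counting limited the precision for all of these genes but Tube1. Replicates differed by more than sampling noise. The labels do not say whether they were separate cultures, so that p-values measure the spread between these libraries, which may be technical. The summed level of 8 myoblast and myotube markers was 1105 to 1111 CPM at day 0 (normalised counts from edgeR's cpm function after TMM scaling), 6747 to 6986 in DMSO and 6516 to 6622 in 4-PBA. The summed level of 10 cycling cell markers was 2241 and 2297 CPM in the day 0 libraries, 668 and 564 in DMSO replicates 1 and 2, and 708 and 722 with 4-PBA. Markers of macrophages, endothelial cells, adipocytes and osteoblasts summed to between 0.0483 and 0.883 CPM per list in every library. In bulk RNA, fewer cells of a type and less RNA per cell cannot be told apart.

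Between day 0 and day 4 with DMSO, the 10 genes did not move as a block. Tubb2a, Tubb2b and Tubb6 were higher at day 4, Tuba1b, Tuba1c, Tuba4a, Tubb3, Tubb5 and Tube1 were lower, and Tuba1a stayed within the spread of its replicates. In the fit over all genes, 9 of the 10 were called at an adjusted p under 0.05, 3 higher and 6 lower, where 66.3% of all tested genes were called. Nothing is read from that count, since this contrast was known when the genes were chosen. The median log2 fold change of the 10 genes was -0.46, and that of all tested genes was 0.02.

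**Figure D1:**
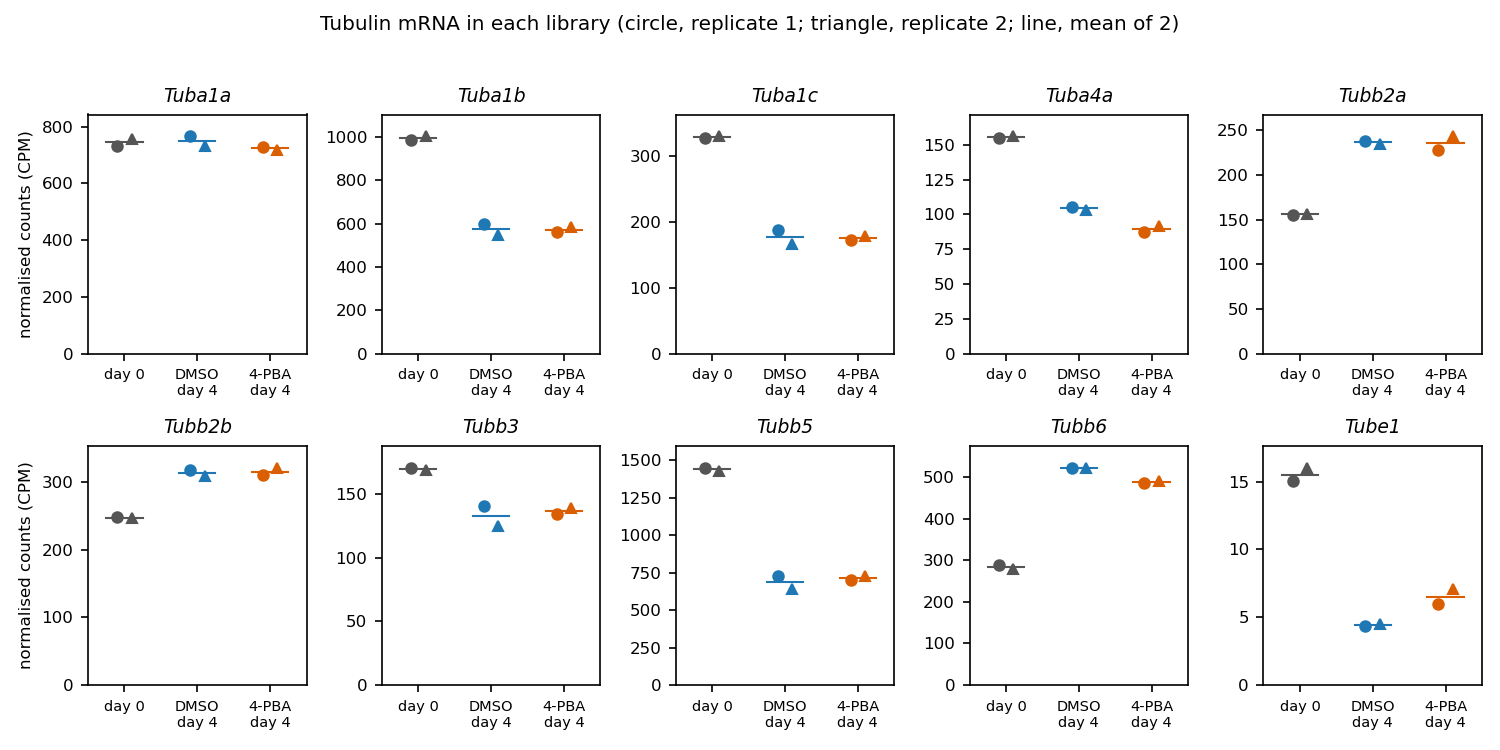
Normalised counts (CPM, linear axis from 0) of each tubulin gene in each library; circles are replicate 1, triangles replicate 2, and lines the mean of 2 libraries. Tuba1a lies between 718 and 766 CPM in all 6 libraries, Tubb5 lies lower at day 4 than at day 0, and Tubb6 lies higher.

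Among the alpha genes, Tuba1a, an isotype known for its part in the developing brain, had 729.7 and 758 CPM at day 0, 766 and 729.9 in the DMSO libraries, and 727 and 718 in those with 4-PBA. The day 0 and DMSO libraries overlapped, with a log2 fold change of 0.01 (SE 0.03), whose sign depends on the scaling: it was -0.02 with library size alone. Tuba1b, a widely expressed alpha isotype, had 985 and 1004 CPM at day 0 and 599 and 548 with DMSO, which is 1.73-fold lower (log2 fold change -0.79, SE 0.03). With 4-PBA it had 560.1 and 585 CPM, inside the range of the DMSO libraries.

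Tuba1c, another close copy, had 328 and 330.1 CPM at day 0, 187 and 166 in the DMSO libraries, and 173 and 179 in those with 4-PBA. Its DMSO libraries lay below day 0 without overlap, by 1.86-fold (log2 fold change -0.90, SE 0.04). Because reads may have been split among these 3 copies, their sum is given as well. It was 2067 ± 34.5 CPM (SD, n = 2) at day 0, 1498 ± 75.8 in DMSO and 1471 ± 15.5 in 4-PBA. If reads that match several genes were dropped and not split, the sum is too low too. The sum was thus 1.38-fold lower with DMSO than at day 0. Tuba1b, Tuba1a and Tuba1c lie next to each other in that order among the protein-coding genes of RefSeq. In GENCODE M21, exons of Gm49450 on the same strand overlap 473 bases of Tuba1a exons and 426 bases of Tuba1b exons. Gm49450 had at most 1.42 CPM in any library, and its part in the counts of both genes was not tested.

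The promoters of the adjacent genes Tuba1a and Tuba1b are shown because their counts moved differently. The sequences run from 250 bases before to 50 after the start, on the strand of the gene, from RefSeq (GRCm38.p6). On either strand, capitals mark the letters CCAAT of the CCAAT box, the letters TATAAA of the TATA box and the letters GGGCGG of the GC box, none of which overlap here.
Tuba1a, chr15:98953452-98953751, minus strand: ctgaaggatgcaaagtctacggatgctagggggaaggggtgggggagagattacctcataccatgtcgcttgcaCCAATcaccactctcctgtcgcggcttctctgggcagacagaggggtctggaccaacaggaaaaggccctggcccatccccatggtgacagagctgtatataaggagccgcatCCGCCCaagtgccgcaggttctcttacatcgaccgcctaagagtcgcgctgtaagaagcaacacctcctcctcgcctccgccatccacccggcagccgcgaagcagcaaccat
Tuba1b, chr15:98934341-98934640, minus strand: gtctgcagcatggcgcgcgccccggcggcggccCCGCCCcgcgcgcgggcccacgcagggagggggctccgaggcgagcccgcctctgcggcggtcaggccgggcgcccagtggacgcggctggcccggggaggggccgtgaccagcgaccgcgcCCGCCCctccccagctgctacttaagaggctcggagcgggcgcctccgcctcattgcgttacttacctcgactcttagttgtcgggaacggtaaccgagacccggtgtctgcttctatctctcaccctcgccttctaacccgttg
The Tuba1a window held 1 CCAAT and 1 GGGCGG, and the Tuba1b window held no CCAAT and 2 GGGCGG. RefSeq promoters were matched for 8 of the 10 genes, without Tubb2b and Tubb6. CCAAT was present in 5 of the 8, against 37.4% of 32851 promoters, GGGCGG in 7 against 35.7%, and TATAAA in 1 against 13.6%. The letters TTTGAA and TTCGAA, forms of the cell cycle homology region, were in none of the 8 windows and in 17.9% and 1.56% of all promoters. Of motifs bound by muscle factors, the E-box CANNTG was in 7 of the 8 windows, against 72.3% of all promoters. Its form CAGCTG was in 1, that of Tuba1b, against 16.3%. The CArG box and the MEF2 motif were in none of the 8, and in 1.63% and 3.19% of all promoters. These are matches of letters on both strands and say nothing of binding. For the TATA box only the letters TATAAA were searched. Looser forms, such as the letters tatataag in the printed Tuba1a window, were not counted.

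Tuba4a, the alpha isotype whose gene does not encode the C-terminal tyrosine, had 155 and 156 CPM at day 0, 106 and 103 in the DMSO libraries, and 87.2 and 91.3 in those with 4-PBA. The groups formed 3 levels with no overlap. It was 1.49-fold lower with DMSO than at day 0 (log2 fold change -0.58, SE 0.04) and 1.17-fold lower with 4-PBA than with DMSO (log2 fold change -0.23, SE 0.04). In GENCODE M21, 1379 bases of its exons overlap exons of Stk16 on the opposite strand. Stk16 had 57.5 and 58.6 CPM at day 0, 47.1 and 47.7 in the DMSO libraries and 47.9 and 46.8 in those with 4-PBA, and its part in the Tuba4a counts was not tested.

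Among the beta genes, Tubb5, the widely expressed class I isotype, had 1449 and 1427 CPM at day 0 and 726 and 642 with DMSO, which is 2.10-fold lower (log2 fold change -1.07, SE 0.05). With 4-PBA it had 702 and 727 CPM, which overlaps the DMSO libraries. Tubb6, the class V isotype known from developing and regenerating muscle fibres, moved the opposite way, with 289 and 279 CPM at day 0 and 522 and 523 with DMSO. That is 1.84-fold higher (log2 fold change 0.88, SE 0.03). With 4-PBA it had 487 and 490.0 CPM, below the DMSO libraries, by 1.07-fold (log2 fold change -0.10, SE 0.03).

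Tubb2a and Tubb2b, neighbouring class II genes, were both higher at day 4. Tubb2a had 155 and 156 CPM at day 0, 239 and 234 in the DMSO libraries, and 229 and 244 in those with 4-PBA. Tubb2b had 248 and 247 CPM at day 0, 319 and 309.5 in the DMSO libraries, and 310.3 and 322 in those with 4-PBA. The DMSO level was 1.52-fold that of day 0 for Tubb2a (log2 fold change 0.60, SE 0.03) and 1.27-fold for Tubb2b (log2 fold change 0.34, SE 0.03). Since these copies share sequence, their sum is given as well: 403.5 ± 0.111 CPM (SD, n = 2) at day 0, 551 ± 9.42 with DMSO and 552 ± 18.6 with 4-PBA.

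Tubb3, the class III isotype used as a marker of neurons, had 171 and 169 CPM at day 0, 141 and 125 in the DMSO libraries, and 134 and 139 in those with 4-PBA. Its DMSO libraries lay below day 0 without overlap, by 1.28-fold (log2 fold change -0.35, SE 0.04). The 6 neuron markers other than Tubb3 summed to 541 to 548 CPM at day 0, 31.5 to 35.0 in DMSO and 33.8 to 36.4 in 4-PBA, nearly all of it from Nefl, a neurofilament subunit, and 2 of the 6 had at most 10 counts in every library. Nefl fell from 542 ± 4.99 CPM at day 0 to 31.0 ± 2.74 with DMSO and was 32.9 ± 1.74 with 4-PBA, and its relation to Tubb3 was not tested.

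The epsilon-tubulin Tube1 was far below the other 9 genes, with 730 and 1125 counts at day 0, 277 and 336 in the DMSO libraries, and 370 and 438 in those with 4-PBA. As normalised counts these were 15.0 and 16.0 CPM, 4.39 and 4.53 CPM, and 5.96 and 7.05 CPM. The 3 groups did not overlap. Tube1 was 3.48-fold lower with DMSO than at day 0 (log2 fold change -1.80, SE 0.11), and with 4-PBA it was 1.46-fold higher than with DMSO (log2 fold change 0.54, SE 0.11), still below day 0. The 4-PBA difference was 0.42 and no longer called without 4-PBA replicate 2. Exons of Ccn6 on the opposite strand overlap 482 bases of Tube1 exons, and Ccn6 had at most 0.0823 CPM in any library.

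Between 4-PBA and DMSO at day 4, 3 of the 10 genes were called, Tube1 higher and Tuba4a and Tubb6 lower, where 4.90% of all tested genes were called. Nothing is read from this count either. The Tubb6 call was lost under several scalings and fits and without 1 of the day 0 or 4-PBA libraries. The other 7 genes had log2 fold changes between -0.05 (Tuba1a) and 0.06 (Tubb5). Tuba1a was 1.03-fold lower with 4-PBA, with libraries that did not overlap, and was not called. DMSO replicate 1 was higher than replicate 2 for all 10 genes except Tubb6 and Tube1, and for the summed cycling markers, and the part of this in the comparison was not tested. Without DMSO replicate 1, Tubb3 and Tubb5 were called as higher with 4-PBA, with log2 fold changes of 0.13 and 0.15.

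Against day 0, the 4-PBA libraries gave 9 of the 10 genes called, 3 higher and 6 lower, where 65.6% of all tested genes were called. This comparison shares its libraries with the others, so its values are only set beside them. Tubb5 had a log2 fold change of -1.01 (SE 0.05) with 4-PBA and -1.07 with DMSO. Tuba4a had -0.80 (SE 0.04) and -0.58, Tubb6 had 0.78 (SE 0.03) and 0.88, and Tube1 had -1.26 (SE 0.10) and -1.80. Tuba1b had -0.80 (SE 0.03) and -0.79, and Tubb2a had 0.60 (SE 0.03) in each.

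**Figure D2:**
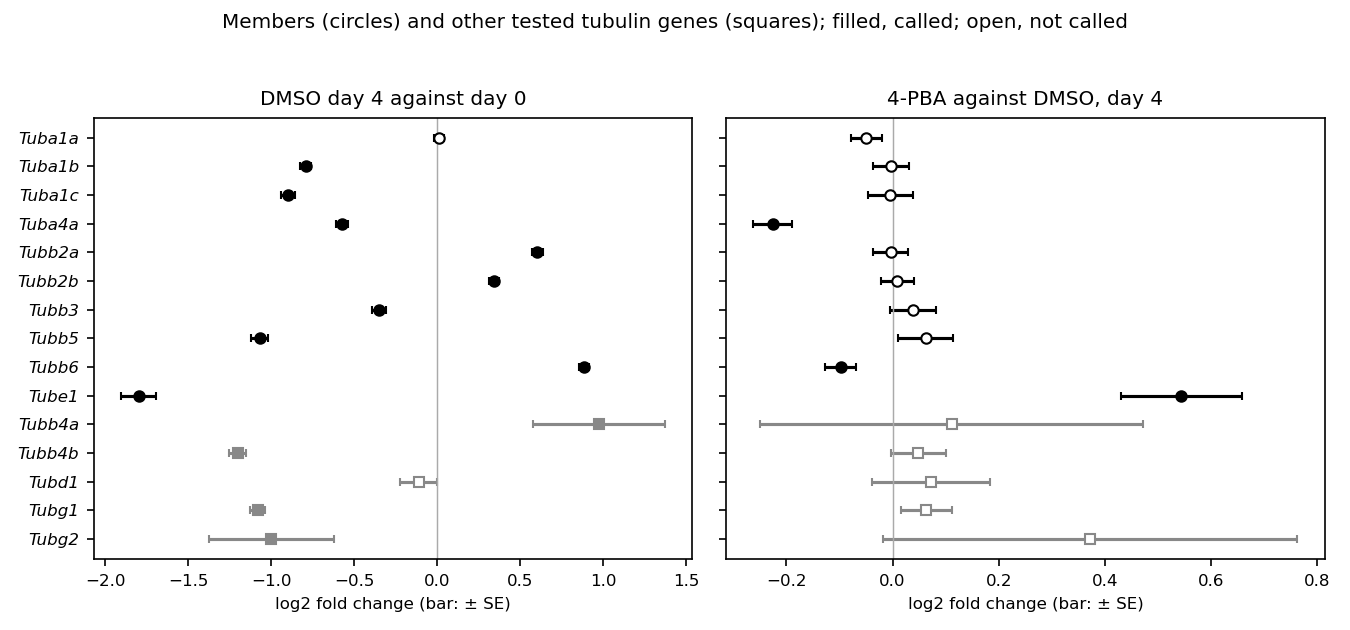
Log2 fold changes (bars ± SE) of the 10 tubulin genes (circles) and of 5 other tested tubulin genes (squares), filled where called; the horizontal scales of the panels differ. In the left panel the genes spread from -1.80 (Tube1) to 0.97 (Tubb4a), and in the right panel Tube1, Tuba4a and Tubb6 are the filled points.

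Levels of different genes were compared only as CPM per kilobase of exon. If reads that match several genes were dropped, the levels of Tuba1a, Tuba1b, Tuba1c, Tubb2a and Tubb2b are too low. The order, sums and shares given below would then also be affected. At day 0 the order was Tuba1b at 530.4 ± 7.03 (SD, n = 2), Tubb5 at 432 ± 4.62 and Tuba1a at 413 ± 10.9 CPM per kilobase, followed by Tuba1c, Tubb6, Tubb2b, Tubb2a, Tubb3 and Tuba4a, with Tube1 last at 1.98 ± 0.0906. No neighbours in this order overlapped. With DMSO, Tuba1a led at 415 ± 14.1, before Tuba1b at 306 ± 19.1, Tubb6 at 214 ± 0.164 and Tubb5 at 206 ± 17.9 CPM per kilobase. Tubb6 and Tubb5 overlapped there, as did Tuba1c and Tubb3 further down. With 4-PBA, Tuba1a led at 401 ± 3.45 and Tuba1b followed at 305 ± 9.26 CPM per kilobase. Tubb5 at 215 ± 5.29 lay above Tubb6 at 200.5 ± 0.841 there, an order that turned over when the longest transcript was used as the length.

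Both the sums of the 4 alpha and 5 beta genes and the shares of single genes in them differed between day 0 and day 4. The summed level of the 4 alpha genes was 1129 ± 18.9 CPM per kilobase at day 0. It was 826 ± 40.0 with DMSO and 807 ± 8.48 with 4-PBA. That of the 5 beta genes was 844 ± 8.24, 775 ± 28.5 and 773 ± 17.9. Tuba1a made up 36.5% ± 0.359 of the alpha sum at day 0, 50.2% ± 0.731 with DMSO and 49.7% ± 0.949 with 4-PBA. Tuba1b went from 47.0% ± 0.164 to 37.0% ± 0.516 and 37.8% ± 0.749. These SDs are between replicates and leave out the choice of length. With the longest transcript as the length, Tuba1a had 34.3%, 47.7% and 47.2% in the 3 groups, and Tuba1b 47.4%, 37.8% and 38.65%. Thus a different alpha gene was the most abundant at day 0 than at day 4, within the limit set by their near-identical sequence.

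Tubb5 made up 51.2% ± 0.0472 of the beta sum at day 0, 26.5% ± 1.34 with DMSO and 27.8% ± 0.0391 with 4-PBA. Tubb6 made up 13.8% ± 0.217, 27.7% ± 1.04 and 25.9% ± 0.494. Tubb2a and Tubb2b also took larger shares at day 4: Tubb2a stood at 19.0% ± 0.454 and Tubb2b at 17.7% ± 0.290 with DMSO, after 11.5% ± 0.172 and 12.8% ± 0.0767 at day 0. Tubb3 made up 10.8% ± 0.0149 at day 0, 9.18% ± 0.444 with DMSO and 9.47% ± 0.00534 with 4-PBA. With Tubb4b counted among the beta genes, Tubb5 had 42.0%, 24.0% and 25.1% in the 3 groups. All 10 genes together took 0.458% ± 0.00129 of the counts at day 0, 0.346% ± 0.0145 with DMSO and 0.345% ± 0.00545 with 4-PBA.

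**Figure D3:**
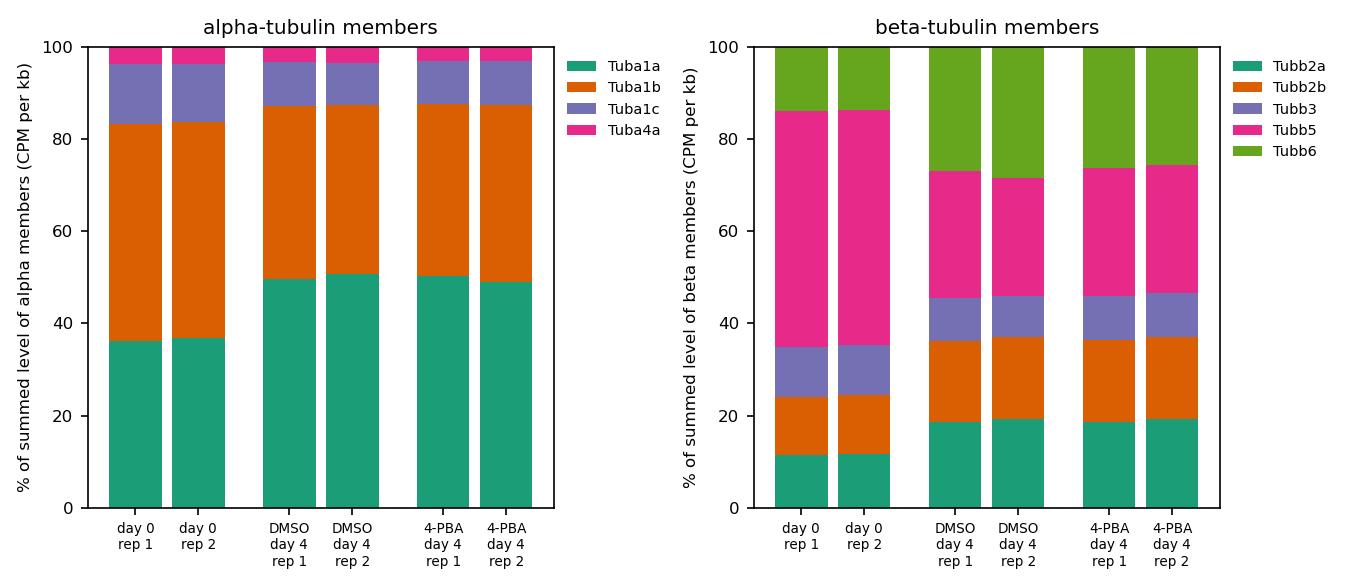
Share of each gene in the summed level (CPM per kilobase, percent) of the 4 alpha genes and of the 5 beta genes, 1 bar per library. The Tubb5 band takes 51.2% on average at day 0 and 26.5% with DMSO, and the Tuba1a band goes from 36.5% to 50.2%.

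Of 10 further tubulin genes, 5 passed the filter. Tubb4b, a class IV beta-tubulin, fell 2.30-fold from 384 ± 3.48 to 167 ± 15.7 CPM between day 0 and DMSO (log2 fold change -1.20, adjusted p = 1.77e-09). Tubg1, the gamma-tubulin that seeds microtubules, fell 2.12-fold from 78.1 ± 1.34 to 36.9 ± 0.263 CPM (adjusted p = 6.98e-21). Tubd1, the delta-tubulin that acts with epsilon-tubulin in the centriole, was 8.19 ± 0.406 and 7.58 ± 0.763 CPM and was not called (log2 fold change -0.11, SE 0.11). The adjusted p-values here and below are from edgeR's quasi-likelihood test with Benjamini-Hochberg adjustment across the whole table.

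Tubb4a and Tubg2 were near the lower limit of the test, at most 0.887 and 1.04 CPM in any library, and their calls (log2 fold changes 0.97 and -1.0) were lost in several settings, such as without day 0 replicate 2. Tuba3a, Tuba3b, Tuba8, Tubal3 and Tubb1 had at most 5 counts in any library. Of the 50-base stretches of Tubb4b, 43.6% occur in a pseudogene copy, so its level is uncertain. Between 4-PBA and DMSO none of the 5 tested genes was called by edgeR, at an unadjusted p under 0.05, or by DESeq2, beside 4.90% called over all tested genes. Tubb4b was called as higher without DMSO replicate 1 (log2 fold change 0.15).

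Genes for tubulin folding were mostly lower at day 4. Of 22 tested, 16 were lower and 5 higher with DMSO than at day 0, with a median log2 fold change of -0.39, beside 66.3% called and a median of 0.02 over all tested genes. The 3 genes with the smallest adjusted p were subunits of the chaperonin that folds new tubulin: Cct6a fell 1.79-fold from 474 ± 17.2 to 265 ± 3.0 CPM (adjusted p = 6.72e-23), Cct7 also 1.79-fold (adjusted p = 1.73e-22) and Cct3 1.67-fold (adjusted p = 2.24e-21). None of the 22 was called between 4-PBA and DMSO by edgeR or DESeq2, and 5 had an unadjusted p under 0.05. With 4.90% of all tested genes called, a list of this size would hold few calls at the background share.

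The enzymes that modify tubulin went both ways. Of 22 tested, 9 were higher and 7 lower with DMSO than at day 0, with a median log2 fold change of 0.14. The 16 called genes are 72.7% of the list, near the 66.3% of all tested genes. Svbp, the partner of the vasohibins that remove the C-terminal tyrosine of alpha-tubulin, rose 2.13-fold from 18.6 ± 0.852 to 39.6 ± 2.67 CPM (adjusted p = 2.17e-17). Hdac6, a tubulin deacetylase, fell 1.85-fold from 62.0 ± 1.41 to 33.5 ± 2.60 CPM (adjusted p = 7.33e-17). Ttll12, a member of the tubulin tyrosine ligase-like family, fell 1.84-fold (adjusted p = 3.73e-21). None of these 22 was called between 4-PBA and DMSO by edgeR or DESeq2 either, again beside 4.90% of all tested genes, and 5 had an unadjusted p under 0.05.

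Ttc5 and Scaper, which act with Cnot11 in the decay of tubulin mRNA when free tubulin is plentiful, were higher at day 4. Ttc5 rose 1.14-fold from 34.8 ± 0.642 to 39.7 ± 1.62 CPM (adjusted p = 0.00195) and Scaper 1.45-fold from 16.2 ± 0.0472 to 23.5 ± 0.930 CPM (adjusted p = 1.67e-08). Cnot11, a subunit of the deadenylase complex, was 46.6 ± 1.51 and 47.8 ± 1.40 CPM and was not called. The 2 called of 3 are at the background share of 66.3%. None of the 3 was called between 4-PBA and DMSO by edgeR or DESeq2 (4.90% of all tested genes), and 1 had an unadjusted p under 0.05.

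Proteins that bind microtubules or set their dynamics also went both ways, with 13 of 36 higher and 14 lower with DMSO than at day 0 and a median log2 fold change of -0.05. The 27 called are 75% of the list, close to the 66.3% of all tested genes. Mapt, which encodes tau, rose 30.5-fold from 1.31 ± 0.0794 to 40.3 ± 1.30 CPM (adjusted p = 9.78e-32). Dclk1, a doublecortin-like kinase that binds microtubules, rose 7.48-fold from 78.3 ± 0.0583 to 586 ± 38.7 CPM (adjusted p = 1.66e-30). Fignl1, which belongs to the fidgetin family of ATPases, fell 4.76-fold from 63.2 ± 0.799 to 13.3 ± 0.735 CPM (adjusted p = 1.24e-26).

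In this list 6 of 36 genes were called between 4-PBA and DMSO, 3 in each direction, where 4.90% of all tested genes were called. Dclk1 was 1.22-fold lower with 4-PBA (log2 fold change -0.28, adjusted p = 5.14e-06), and Clasp1, which stabilises microtubule plus ends, was 1.14-fold lower (log2 fold change -0.19, adjusted p = 0.000411). Map1b, a microtubule-associated protein of neurons, was 1.11-fold lower (log2 fold change -0.15, adjusted p = 0.000966), a call that was lost without 4-PBA replicate 2. Stmn1, which sequesters tubulin dimers, was 1.25-fold higher (log2 fold change 0.32, adjusted p = 6.05e-05), and Fignl1 1.28-fold higher (log2 fold change 0.35, adjusted p = 0.000779). Stmn1 had fallen 2.75-fold between day 0 and DMSO and Clasp1 had risen 1.83-fold, and these comparisons share the DMSO libraries.

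Among genes that nucleate microtubules or anchor them at the centrosome or nuclear envelope, 10 of 17 were lower and 3 higher with DMSO than at day 0, with a median log2 fold change of -0.30. The 13 called are 76.5% of the list, beside 66.3% of all tested genes. Akap6, the nuclear envelope scaffold of muscle cells, rose 2.82-fold from 43.7 ± 0.278 to 123 ± 1.36 CPM (adjusted p = 4.20e-27). Nedd1, which recruits the gamma-tubulin ring to the spindle and centrosome, fell 1.87-fold (adjusted p = 5.21e-18), and Tubgcp6, a subunit of that ring, fell 1.52-fold (adjusted p = 1.82e-14). Akap6 was also the only gene of the 17 called between 4-PBA and DMSO, at 110 ± 2.27 CPM with 4-PBA (log2 fold change -0.16, adjusted p = 0.00607), and the call was lost without 4-PBA replicate 2. That single call is 5.88% of the list, near the 4.90% of all tested genes.

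Centriole genes, the group to which Tube1 belongs by function, were lower at day 4 in 15 of 16 cases and higher in none, with a median log2 fold change of -1.03. Over all tested genes 66.3% were called, and 5678 of 17433 were lower. Tedc1, a partner of delta- and epsilon-tubulin, fell 3.62-fold from 47.5 ± 1.27 to 13.2 ± 1.57 CPM (adjusted p = 5.22e-22). Plk4, the kinase that starts centriole duplication, fell 3.22-fold from 94.1 ± 4.03 to 29.2 ± 0.795 CPM (adjusted p = 5.31e-26). Cep192, a scaffold of the material around centrioles, fell 2.30-fold (adjusted p = 3.51e-21).

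Between 4-PBA and DMSO, Plk4 alone of these 16 was called, at 33.1 ± 0.221 CPM with 4-PBA (log2 fold change 0.18, adjusted p = 0.0322). This is 6.25% of the list, near the 4.90% of all tested genes. The call was lost under DESeq2, in a fit of 4 libraries and without any 1 library other than DMSO replicate 1. Tedc1 was 15.2 ± 0.549 CPM with 4-PBA (log2 fold change 0.21, SE 0.08) and was not called.

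The 10 cycling cell markers were all lower with DMSO than at day 0, with a median log2 fold change of -2.01, beside 66.3% called and a median of 0.02 over all tested genes. Mki67 fell 2.95-fold (adjusted p = 4.62e-08), Ccnb1 4.12-fold (adjusted p = 1.73e-07) and Cdk1 3.87-fold (adjusted p = 2.83e-05) between day 0 and DMSO. With 4-PBA these 3 genes had log2 fold changes against DMSO of 0.19, 0.24 and 0.17, and none of them was called. The 3 of the 10 that were called as higher with 4-PBA, beside 4.90% of all tested genes, were Ccna2, Plk1 and Mcm2, named after their values were seen. Their log2 fold changes were 0.21 (adjusted p = 0.0320), 0.23 (adjusted p = 0.0112) and 0.21 (adjusted p = 0.00454). Without DMSO replicate 2, Ccna2 and Plk1 were not called (log2 fold changes 0.11 and 0.12), nor were they without either 4-PBA library, and Mcm2 was not called without 4-PBA replicate 2 (0.16). Of the 8 myoblast and myotube markers, 7 were called higher and 1 lower with DMSO than at day 0, beside 66.3% of all tested genes. Between 4-PBA and DMSO, 3 of these 8 were called, all lower with 4-PBA, beside 4.90% of all tested genes. The part of dividing cells in the differences of Tubb5, Tuba1b, Tuba1c, Tube1 and the centriole genes was not tested.

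**Figure D4:**
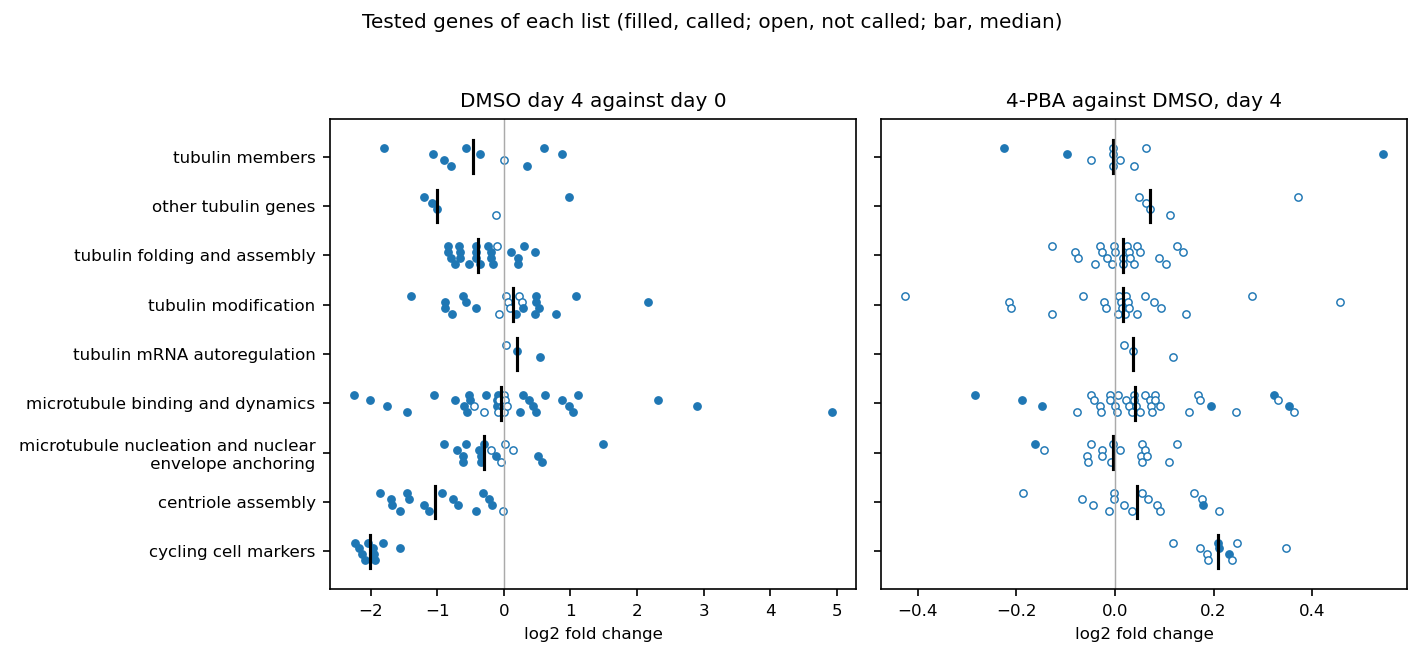
Log2 fold changes of the tested genes of each list, 1 point per gene, filled where called, with a bar at the median; the horizontal scales of the panels differ. In the left panel the medians are -0.46 for the 10 tubulin genes, -1.03 for centriole genes and -2.01 for cycling cell markers; in the right panel all medians lie within 0.21 of 0.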

How the data were processed

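RNA was sequenced from 6 C2C12 libraries, 2 per group, prepared with a directional kit per the labels. The authors deposited raw counts per gene symbol for each library, not normalised or pooled. The genome build GRCm39 is named in the submitters' processing notes; the aligner, counting tool, annotation and use of strand are not given in the sources used here.

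The counts were fitted with edgeR 4.0.16 under R 4.3.3: filterByExpr by group, TMM scaling, and 1 robust quasi-likelihood fit with a mean per group over all 6 libraries, with Benjamini-Hochberg adjustment over 17433 genes and calls at an adjusted p under 0.05. The common biological coefficient of variation was 3.74% with 3 residual degrees of freedom. An exact permutation of 2 against 2 libraries cannot give a p below 0.333, so calls rest on a spread shared across genes. CPM are normalised counts from the cpm function after TMM scaling, and the SE is the size of the log2 fold change divided by the square root of F.

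Lengths, exon overlaps and transcripts came from GENCODE M21 (GRCm38) and promoters from RefSeq (GRCm38.p6); both printed promoters have coordinates of that RefSeq build, and no other coordinates are given because the counts use another build. The level per kilobase uses the union of exons. Coding sequences were aligned with Biopython 1.88, and figures were drawn with matplotlib 3.10.9. Some sequences are not reported here.

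The 10 genes and all gene lists were chosen with earlier results of these data known. Named were the 10 genes, all other tubulin and autoregulation genes, and, in each other list, the 3 called genes with the smallest adjusted p between day 0 and DMSO and up to 5 called between 4-PBA and DMSO, plus Mki67, Ccnb1 and Cdk1. Nefl, Stk16, Ccn6, Gm49450, Ccna2, Plk1 and Mcm2 were added after their values were seen. Alternatives were DESeq2 1.42.0, other scalings, filters and lengths, a fit of 4 libraries, a replicate block and leaving out each library. The method was tested on simulated data in which 200 genes were changed in the DMSO group only. Far more genes were called between day 0 and day 4. The simulation therefore does not test the fit where most genes differ.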

Additional observations from a re-analysis of the deposited data

How the results depend on the processing

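The 9 calls among the 10 tubulin genes between day 0 and DMSO, and the 9 between day 0 and 4-PBA, were also 9 in every alternative run. Between 4-PBA and DMSO the counts moved more. Leaving out each library in turn gave 295 to 1194 called genes instead of 855 (341 and 295 without 4-PBA replicates 1 and 2), 1 to 5 of the 10 tubulin genes instead of 3 and 4 to 25 other listed genes instead of 11, and with no filter beyond 1 count the last count was 21. Deviations of libraries with the same replicate number were nearly uncorrelated across genes (correlations between -0.028 and -0.0031). This does not show whether the samples were paired in culture or preparation. With the replicate block, 768 genes and 2 of the 10 tubulin genes were called between 4-PBA and DMSO. Between 4-PBA and DMSO, Tubb6 had a log2 fold change between -0.10 and -0.088 in every alternative run. It passed the threshold without either DMSO library, under both filters and in the DESeq2 test, and did not with DESeq2 size factors, library size alone, the 4 libraries compared, the replicate block, or without either day 0 or either 4-PBA library. Tube1 had 0.42 to 0.66 and passed in all alternatives run except without 4-PBA replicate 2. Small values near 0 changed sign. Tuba1a between day 0 and DMSO was -0.0011 with DESeq2 size factors, -0.0013 in the DESeq2 test, -0.020 with library size alone, and -0.026 to 0.041 on leaving out a library. Between 4-PBA and DMSO, library size alone gave 0.0066 for Tuba1b, 0.0052 for Tuba1c and 0.0063 for Tubb2a. Leaving out a library gave ranges of -0.064 to 0.061 for Tuba1b, -0.086 to 0.082 for Tuba1c, -0.049 to 0.042 for Tubb2a, -0.017 to 0.036 for Tubb2b, -0.045 to 0.13 for Tubb3, -0.023 to 0.15 for Tubb5, -0.044 to 0.15 for Tubb4b, -0.057 to 0.19 for Tubd1, -0.21 to 0.50 for Tubb4a, -0.23 to 0.80 for Tubg2, -0.0035 to 0.079 for Scaper and -0.018 to 0.054 for Cnot11. The cause was not tested. The length of the transcript with the longest complete coding sequence, and Tubb4b among the beta genes, were chosen after seeing the data. For every alpha and beta gene that length equals the length of the longest transcript, so both other lengths are 1 calculation. With it, shares moved as given above, and the order of Tubb5 and Tubb6 with 4-PBA turned over. With 2 libraries per group, 1 library can decide a call between 4-PBA and DMSO, and splitting of reads among Tuba1a, Tuba1b and Tuba1c or Tubb2a and Tubb2b limits their separate values.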
